A study of Mus musculus with 12 samples.

Results

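RNA bound to the ribosomes of sensory neurons was compared with the RNA of the whole ganglion in uninjured lumbar dorsal root ganglia (DRG) of mice. The comparison takes the 3 libraries labelled IP Naïve against the 3 labelled Input Naïve, 6 of the 12 libraries of the series, and was followed through 11354 genes. All mice were Adv-Cre//Ribotag animals, in which Cre recombinase puts an HA tag on the ribosomal protein RPL22, in cells that express Cre from the advillin (Adv) promoter. IP libraries hold RNA precipitated with the tagged ribosomes from L4-L6 ganglia, and input libraries hold RNA of the same kind of homogenate before precipitation. Every mouse had one sciatic nerve crushed 3 days earlier, and the naive ganglia came from animals with that crush, so naive means an uncrushed side and not an untouched mouse. Each library pools ganglia of 4 mice. Strain, age and sex are not given in the labels.

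A DRG holds the cell bodies of sensory neurons, each wrapped in satellite glia, among Schwann cells, fibroblasts, blood vessels and macrophages. The RiboTag method uses a tagged ribosomal protein to pull down ribosomes, and the messenger RNA on them, from the Cre-expressing cell type without dissociating the tissue. RNA of the other cell types is then lost, apart from what sticks to the beads or antibody. RNA that is made in neurons but rests in the nucleus, or is kept off ribosomes, is also lost.

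The libraries were QuantSeq REV libraries, which read the end of polyadenylated RNA, so a transcript gives about the same number of reads whatever its length. Total counts were 16843737, 12860794 and 18527515 in IP naive libraries 1 to 3, against 10045178, 14053174 and 12610260 in input naive libraries 1 to 3. Levels are given in CPM, counts scaled to a common total over the genes tested with TMM factors. These factors set the typical gene to no change, so each log2 fold change (IP naive over input naive, ± standard error) is relative to that gene. Tests are edgeR's quasi-likelihood test with Benjamini-Hochberg adjustment over all 11354 genes and a threshold of 0.05. They measure only the spread between these pools.

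In the IP, 221 genes rose (1.95% of those tested) and 566 fell (4.99%), together 787 (6.93%). The falls were deep and the rises shallow. Among the deepest falls of genes with at least 20 CPM in the higher group were Gjb1 (-5.15 ± 0.99), a gap junction protein of myelinating Schwann cells, and Mag (-5.01 ± 0.58), a myelin adhesion protein. The largest rise of the same rule was Rab11fip3 (1.77 ± 0.41), an effector of the recycling endosome GTPase Rab11. All 3 IP libraries lay above all 3 input libraries in 1226 genes (10.8%) and below them in 1582 (13.9%). Of the 787 genes, 362 passed in each of the 6 fits that left out 1 library (45 higher and 317 lower). The number of rises depended on single libraries, with 90 without IP naive 1, 73 without IP naive 3, 133 without input naive 1 and 125 without input naive 3.

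Scaling moves the small changes. When the libraries were scaled on a list of 34 pan-neuronal genes in place of the typical gene, the median of all genes was -0.35, against -0.02 with TMM. On that scale 18 genes were higher and 1080 lower. The lists of neuronal and housekeeping genes are therefore mostly given with their median on both scales, and a rise means more than the typical gene, not more than the typical neuronal gene. Some known genes of the lists, such as Col1a1, Trpv1 and Mrgprd, had no usable site in the table used here, which says nothing about their expression.

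**Figure D1:**
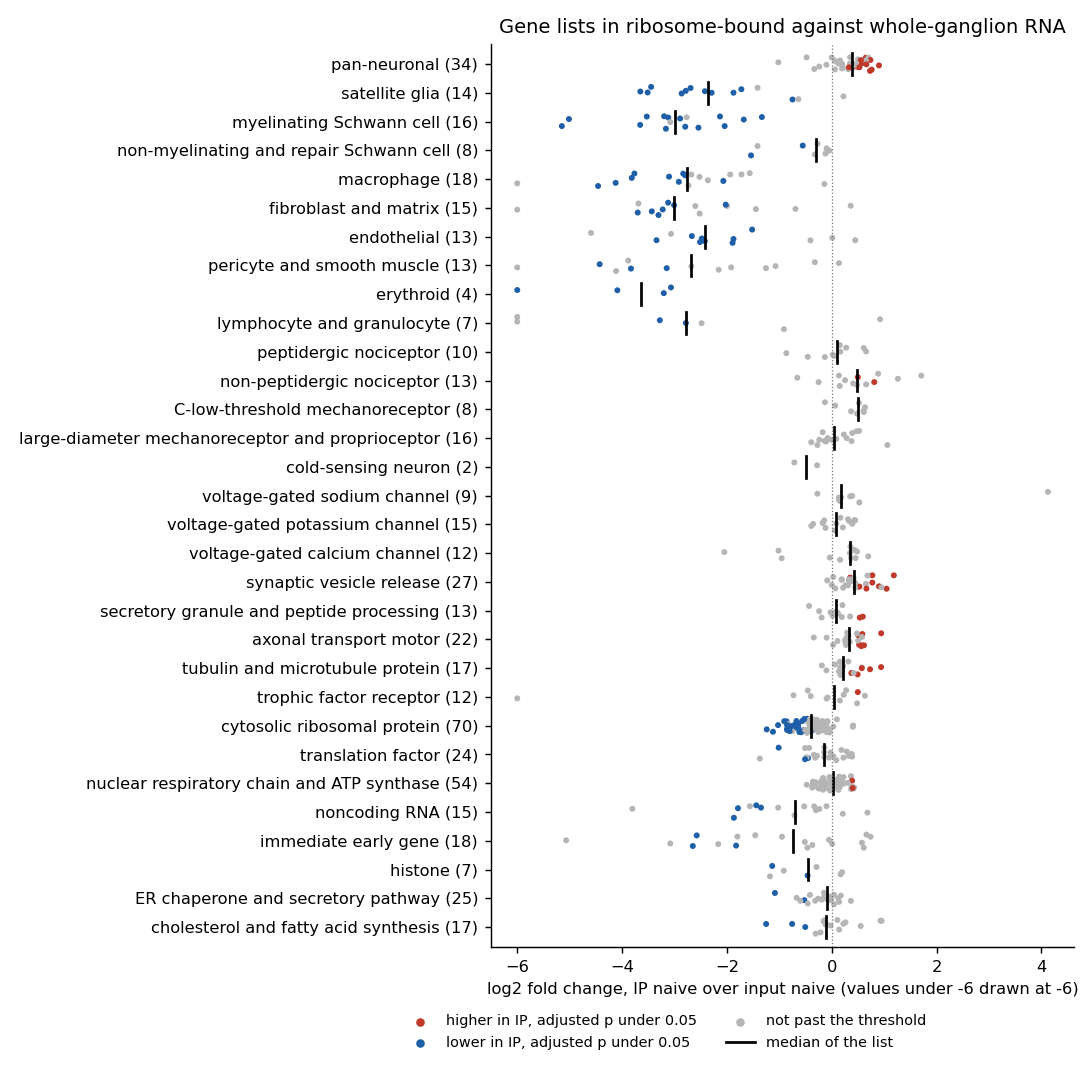
Each point is a gene of one of 31 lists, placed by its log2 fold change (IP naive over input naive, x axis). The number of genes tested stands beside each list, red and blue points passed the threshold as higher or lower in IP, and black bars are list medians. The lists of glia, blood, vessel and matrix genes lie far left with medians from -2.36 to -3.65, apart from the non-myelinating Schwann list at -0.30, and the neuronal lists lie near 0.

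The pan-neuronal list was used to describe the neuronal RNA of the IP. Like all the lists, it was chosen with earlier results of these data known, so it is not an independent check. Of the 34 genes of the list tested, 12 rose (35.3%, beside 1.95% of all genes) and none fell. There were 1 higher and 4 lower with pan-neuronal scaling (18 and 1080 of all genes), and 17 higher and 1 lower by DESeq2 (406 and 860 of all genes). The median was 0.38 beside -0.02 over all genes (0.06 with the pan-neuronal scaling, by construction close to 0). Syt1, the calcium sensor of synaptic vesicle fusion, had 1198, 1124 and 1342 CPM in IP naive libraries 1 to 3, against 721, 701 and 540.3 CPM in input naive libraries 1 to 3. All 3 IP libraries lay above all 3 input libraries, a difference of 0.90 ± 0.17 (adjusted p = 0.00219). Uchl1, a ubiquitin hydrolase abundant in neurons, had 10662, 6995 and 9899 CPM in IP, against 6104, 5161 and 6311 CPM in input (0.65 ± 0.14, adjusted p = 0.00539). Stmn2 and Stmn3, tubulin-binding stathmins of neurons, rose by 0.57 and 0.73, and Nsf, the ATPase that takes SNARE complexes apart, by 0.66. Each of these 5 genes passed in all 6 fits that left out a library. The count of 12 was between 6 and 14 with 1 library left out (7 without IP naive 1, 6 without IP naive 3, 7 without input naive 1, 7 without input naive 2). The summed level of the list was 50486, 44574 and 48862 CPM in IP, against 38061, 35835 and 36927 CPM in input, a ratio of 1.30 between the group means.

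Some neuronal genes did not pass. On the pan-neuronal list 29 of 34 log2 fold changes were above 0 and 5 below, the lowest at -1.02. Avil, the gene whose promoter drives the Cre, had 107, 103 and 107 CPM in IP, against 129, 164 and 151 CPM in input. All 3 IP libraries were below all 3 input libraries, but the difference of -0.48 ± 0.17 did not pass (adjusted p = 0.0970). Nefh, the heavy neurofilament of large-diameter neurons, had 1224, 1281 and 1201 CPM in IP, against 1387, 1387 and 1600.4 CPM in input (-0.24 ± 0.10, adjusted p = 0.180). Rbfox3, the gene of the neuronal nuclear marker NeuN, had 621, 584 and 695 CPM in IP, against 472, 421 and 525 CPM in input (0.42 ± 0.13, adjusted p = 0.0502), which did not pass, with all IP libraries above all input libraries. Isl1, a sensory neuron transcription factor, overlapped between the groups (0.20 ± 0.19, adjusted p = 0.626). Rpl22, the gene that carries the tag, had 246, 208 and 235 CPM in IP, against 243, 272 and 319.7 CPM in input and did not pass either (-0.28 ± 0.15, adjusted p = 0.306). Whether its sites tell the tagged from the untagged allele is not given in the sources used here.

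Genes of the untagged cells fell. Over all genes tested 4.99% fell, the share to hold beside the counts of these lists. The falls of untagged cell genes compare precipitated RNA with RNA before precipitation. They do not measure the number of cells of a type or the RNA per cell. Over 8 lists of untagged cells, 100 genes tested, the summed level was 4123, 5816 and 5285 CPM in IP, against 19359, 17146 and 19838 CPM in input. The ratio of the means was 0.270, and by list it ran from 0.110 for erythroid genes to 0.487 for satellite glia. Hmgcs1 and Pmp22, with 1273 and 959 CPM on average in IP, were the most abundant members there, and without them the ratio was 0.186. A ninth list, non-myelinating and repair Schwann cells, had a ratio of 0.849 of its own and was not in this sum. With it the ratio was 0.312. These 2 further sums were chosen after seeing the data. Over the 8 lists the ratio was 0.213, 0.339 and 0.266 in replicates 1 to 3, and IP naive 2 was the highest of the IP libraries in this sum. Of the 100 genes, 6 had no count in any IP naive library. They included Trem2 of macrophages, Dpt of fibroblasts, Kcnj8 of pericytes and Cd79b and Nkg7 of lymphocytes, with input means from 1.08 CPM for Kcnj8 to 3.05 CPM for Nkg7 among those named. Over all 11354 genes tested, 393 had no count in IP naive or in input naive. A gene with no count in IP naive was tested only through its counts in other groups. These 6 are therefore no separate evidence of a fall.

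**Figure D2:**
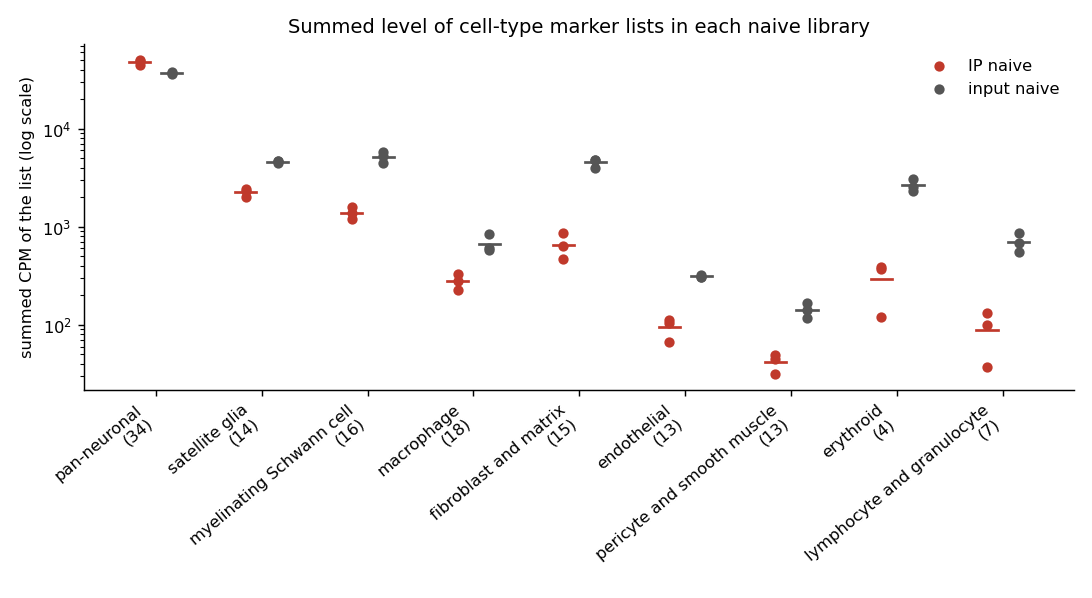
Points are the summed CPM (log scale) of each marker list in the 3 IP naive libraries (red) and the 3 input naive libraries (grey), with the number of genes tested under each name and the group mean as a bar. The pan-neuronal sum is higher in every IP library, and each of the other 8 sums is lower in every IP library than in any input library.

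Satellite glia, the cells that envelop neuronal cell bodies, had 11 of 14 genes lower and none higher, with a median of -2.36. The count was between 10 and 11 with 1 library left out. Apoe, a lipid carrier, had 101, 209 and 237 CPM in IP naive libraries 1 to 3, against 1281, 1235 and 1460.5 CPM in input naive libraries 1 to 3 (-2.86 ± 0.31, adjusted p = 6.27e-06). The 2 groups were far apart. Fbln5, an elastic fibre protein, fell to 8.76 ± 3.46 CPM in IP, against 109 ± 8.76 CPM in input (SD, n = 3 each), and Fabp7, a fatty acid-binding protein of glia, fell by 2.42 ± 0.38 on the log2 scale. Timp3, a metalloprotease inhibitor (-1.73 ± 0.17), fell less. Glul, the glutamine synthetase of satellite glia, had 445, 479 and 462 CPM in IP, against 804, 682 and 843 CPM in input (-0.75 ± 0.12), a smaller fall with no overlap. Hmgcs1, an enzyme of cholesterol synthesis that was on the list as a satellite gene, had the highest level of the list and did not pass. It had 1176, 1346 and 1297 CPM in IP, against 1207, 1179 and 888 CPM in input, with overlapping groups (0.22 ± 0.17, adjusted p = 0.515).

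Myelinating Schwann cells had 14 of 16 genes lower, with a median of -2.99, and in all 16 the 3 IP libraries lay below the 3 input libraries. The count was between 14 and 15 with 1 library left out. Mbp, a major protein of compact myelin, had 179, 337 and 228 CPM in IP naive libraries 1 to 3, against 1908, 1513 and 1743 CPM in input naive libraries 1 to 3 (-2.80 ± 0.24, adjusted p = 6.54e-07). Mag was at 0.853, 0.830 and 0.957 CPM in IP, against 32.1, 22.3 and 32.3 CPM in input. Pmp22, a myelin membrane protein, fell least among the 4 genes of lowest p, with 864, 1029 and 984 CPM in IP, against 2707, 1993 and 2549 CPM in input (-1.33 ± 0.13). Ncmap (-3.20 ± 0.33) and Mal (-2.13 ± 0.22), further myelin membrane proteins, fell too. The list of non-myelinating and repair Schwann cells had 2 of 8 genes lower (25%, beside 4.99% of all genes), and the median was -0.30. Their number was between 0 and 2 with 1 library left out (0 without IP naive 1, 0 without IP naive 3, 1 without input naive 1, 1 without input naive 2). Matn2, a matrix protein, had 13.9, 28.9 and 11.6 CPM in IP, against 54.1, 59.3 and 44.2 CPM in input and held in 4 of 6 fits that left out 1 library (adjusted p up to 0.0835, without IP naive 3). Ncam1, a neural cell adhesion molecule, fell by 0.55 ± 0.16 and held in 2 of 6 fits that left out 1 library (adjusted p up to 0.156, without IP naive 3). Ncam1, L1cam and Cd44 of this list are also expressed by neurons, and L1cam and Cd44 overlapped between the groups (-0.12 and -0.05).

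Blood and immune genes fell in part. All 4 erythroid genes tested fell, with a median of -3.65. Hbb-bs, an adult beta globin, had 74.1, 289 and 262 CPM in IP, against 1910.4, 1711 and 2141 CPM in input (-3.20 ± 0.39, adjusted p = 2.25e-05), and its near-identical neighbour Hbb-bt had -3.07. How reads shared by such copies were counted is not given in the sources used here. Alas2, the first enzyme of heme synthesis in red cells, fell to 2.75 ± 1.66 CPM in IP, against 46.9 ± 6.70 CPM in input (SD, n = 3 each). Of 18 macrophage genes 9 fell, with a median of -2.77. The count was between 4 and 9 with 1 library left out (4 without IP naive 1, 5 without IP naive 3). C1qc and C1qa, chains of complement C1q, had -3.82 and -3.77, and Lyz2, a lysozyme of macrophages, had 12.3, 28.3 and 25.99 CPM in IP, against 149, 132 and 181 CPM in input (-2.80 ± 0.56). Lgmn, a lysosomal protease on the macrophage list, overlapped between groups at 190.4, 233 and 208 CPM in IP, against 202, 227 and 267 CPM in input. S100a8 and S100a9, calcium-binding proteins of neutrophils, had -3.28 ± 0.54 and -2.78 ± 0.53. They were the 2 of 7 lymphocyte and granulocyte genes that fell (28.6%, beside 4.99% of all genes).

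Of 15 fibroblast and matrix genes 7 fell and none rose, with a median of -3.01. The count was between 7 and 8 with 1 library left out. Dcn, a matrix proteoglycan, had 87.9, 251 and 135 CPM in IP naive libraries 1 to 3, against 1500.0, 1372 and 1555 CPM in input naive libraries 1 to 3 (-3.23 ± 0.32, adjusted p = 3.13e-06). Sparc, a collagen-binding protein (-3.12), Mgp, matrix Gla protein (-3.43), and Col1a2, a chain of collagen I (-3.01), fell too. In each of these 4 genes IP naive 1 was the lowest library. Among endothelial genes 8 of 13 fell, with a median of -2.42. Their count was between 3 and 7 with 1 library left out (4 without IP naive 1, 4 without IP naive 3, 3 without input naive 1, 5 without input naive 2, 3 without input naive 3). Cdh5, the cadherin of endothelial junctions, had 3.10, 2.59 and 4.34 CPM in IP, against 17.4, 25.2 and 21.6 CPM in input (-2.67 ± 0.57, adjusted p = 0.00556). Ly6c1, a surface antigen of endothelium and monocytes, had -3.34. The VEGF receptor genes Kdr (-2.42) and Flt1 (-1.52) fell too. Kdr held in 2 of 6 fits that left out 1 library (adjusted p up to 0.0943, without IP naive 1), and Flt1 in 3 of 6 fits that left out 1 library (adjusted p up to 0.111, without IP naive 1). Of 13 pericyte and smooth muscle genes 3 fell (23.1%, beside 4.99% of all genes). They were Acta2, smooth muscle actin, at 0.543, 1.66 and 2.36 CPM in IP, against 29.6, 28.6 and 40.6 CPM in input (-4.43 ± 0.56), Vtn, vitronectin (-3.83), and Myl9, a myosin light chain (-3.15). Other named genes with the deepest falls were Cnmd (-5.14), an antiangiogenic protein of cartilage, Thbs4 (-4.54), a thrombospondin of the matrix, Col12a1 (-4.42), a collagen, Ltf (-4.09) and Retnlg (-4.18), secreted by neutrophils, Cd93 (-4.08), an endothelial receptor, Nes (-4.00), the filament nestin, and H2-DMb1 (-4.00), of antigen presentation. Thbs4 held in 3 of 6 fits that left out 1 library (adjusted p up to 0.0754, without input naive 2), and Retnlg in 4 of 6 fits that left out 1 library (adjusted p up to 0.0592, without input naive 3).

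Genes of synaptic vesicle release rose in part. Of 27 tested, 8 rose and none fell, a share of 29.6% beside 1.95% of all genes, with a median of 0.42 (0.10 with pan-neuronal scaling). The count was between 5 and 10 with 1 library left out (5 without input naive 3). Syt9, a synaptotagmin that senses calcium, had 364, 267 and 363 CPM in IP naive libraries 1 to 3, against 122, 164 and 151 CPM in input naive libraries 1 to 3 (1.18 ± 0.19, adjusted p = 3.37e-04). Its lowest IP library was well above its highest input library. Sv2b, a vesicle membrane glycoprotein, had 623, 373 and 512 CPM in IP, against 212, 269.6 and 249 CPM in input (1.05 ± 0.20), and Syt7, a slower calcium sensor, 776, 555 and 691 CPM in IP, against 400.5, 355 and 427 CPM in input (0.77 ± 0.14). With pan-neuronal scaling 3 of the 27 passed as higher, beside 18 of all 11354 genes. Syt11, a synaptotagmin that does not bind calcium, had the highest level, and its rise of 0.35 ± 0.09 held in 1 of 6 fits that left out 1 library (adjusted p up to 0.0893, without input naive 1). Of 13 secretory granule genes 2 rose (15.4%, beside 1.95% of all genes), Scg2 and Scg3, which are granins that pack neuropeptides. The list median was 0.08 (-0.24 with pan-neuronal scaling, so its direction turns). This count of 2 was between 0 and 2 with 1 library left out (1 without IP naive 1, 1 without IP naive 3, 1 without input naive 1, 1 without input naive 2, 0 without input naive 3). Scg2 had 1006, 1095 and 1026 CPM in IP, against 760.5, 764 and 635 CPM in input (0.53 ± 0.13) and held in 5 of 6 fits that left out 1 library (adjusted p up to 0.0698, without input naive 3). Scg3 rose by 0.59 ± 0.15 and held in 1 of 6 fits that left out 1 library (adjusted p up to 0.110, without IP naive 1).

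Motor proteins of axonal transport had 7 of 22 genes higher (31.8%, beside 1.95% of all genes) and none lower. The median was 0.33 (0.00 with pan-neuronal scaling, on which none of the 22 was higher). The count of 7 was between 1 and 8 with 1 library left out (3 without IP naive 1, 1 without IP naive 3, 3 without input naive 1, 2 without input naive 2, 3 without input naive 3). Klc1, a kinesin light chain that links the motor to cargo, had 2759.6, 2264 and 2685 CPM in IP naive libraries 1 to 3, against 1719.6, 1683 and 1782 CPM in input naive libraries 1 to 3 (0.57 ± 0.10, adjusted p = 0.00138). It was the member that passed in all 6 fits among the 4 of lowest p. Kif5c, a neuronal kinesin heavy chain, rose by 0.58 ± 0.13 and held in 4 of 6 fits that left out 1 library (adjusted p up to 0.0615, without input naive 3). Kif3c, another kinesin, and Dync1li2, a dynein light intermediate chain, rose by 0.52 and 0.61. Kif3c held in 3 of 6 fits that left out 1 library (adjusted p up to 0.110, without IP naive 3), and Dync1li2 in 2 of 6 fits that left out 1 library (adjusted p up to 0.0995, without IP naive 3). Of 17 tubulin and microtubule genes 5 rose (29.4%, beside 1.95% of all genes), with a median of 0.22. With pan-neuronal scaling the median was -0.10, the opposite direction, with 1 higher and 1 lower (18 and 1080 of all genes). The count of 5 was between 3 and 6 with 1 library left out (3 without IP naive 1, 3 without IP naive 3, 3 without input naive 1). Tubb2a, a beta tubulin, had 2469, 2756 and 2652 CPM in IP, against 1779, 1846 and 1972 CPM in input (0.49 ± 0.09). Stmn4, a stathmin, rose by 0.94 ± 0.27 and held in 1 of 6 fits that left out 1 library (adjusted p up to 0.182, without input naive 3). Tuba1a, the alpha tubulin with the highest level of that list, had 9729, 17449 and 11296 CPM in IP, against 14274, 13752 and 15835 CPM in input (-0.19 ± 0.16, adjusted p = 0.556). IP naive 2 lay above all 3 input libraries and the other IP libraries below them.

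Genes that mark classes of sensory neuron gave few calls. Their counts at an unadjusted p under 0.05 are given without the share of all genes, so they are not read as an excess. Over all 11354 genes DESeq2 called 406 higher and 860 lower. None of 10 peptidergic nociceptor genes passed (2 at an unadjusted p under 0.05, 0 by DESeq2), and their median was 0.10 (-0.21 with pan-neuronal scaling, below 0). Calca, which encodes the pain peptide CGRP, had 2944, 4077 and 3303 CPM in IP naive libraries 1 to 3, against 3142, 3506 and 3281 CPM in input naive libraries 1 to 3 (0.06 ± 0.12, adjusted p = 0.865). The groups overlapped, as did those of Tac1, the substance P precursor (0.16), and Nmb, neuromedin B (0.15). None of 16 genes of large-diameter mechanoreceptors and proprioceptors passed (1 at an unadjusted p under 0.05, 0 by DESeq2), with a median of 0.04 (-0.28 with pan-neuronal scaling). Kcna1, a potassium channel, and Etv1, a proprioceptor transcription factor, had 0.09 and 0.28. Non-peptidergic nociceptors had 2 of 13 genes higher (15.4%, beside 1.95% of all genes) and a median of 0.48 (0.15 with pan-neuronal scaling, on which 0 passed). Plxnc1, a semaphorin receptor, had 335, 326 and 326 CPM in IP naive libraries 1 to 3, against 210.4, 199 and 153 CPM in input naive libraries 1 to 3 (0.81 ± 0.17, adjusted p = 0.00547). Ret, the receptor tyrosine kinase for GDNF family ligands, had 596, 459 and 549.5 CPM in IP, against 364, 433 and 339 CPM in input (0.50 ± 0.15), and held in 2 of 6 fits that left out 1 library (adjusted p up to 0.184, without IP naive 1). The pain-related sodium channel genes Scn10a and Scn11a of that list overlapped between groups (0.15 and 0.14). The 8 C-low-threshold mechanoreceptor genes, markers of fibres for gentle touch, had the median 0.50 with 0 past the threshold, 4 at an unadjusted p under 0.05 and 0 by DESeq2. Gfra2, a GDNF family receptor, had 256, 187 and 205 CPM in IP, against 173, 132 and 159 CPM in input (0.48 ± 0.17, adjusted p = 0.102), and P2ry1, a nucleotide receptor, 0.63 ± 0.25 (adjusted p = 0.142). In both all IP libraries lay above all input libraries. Piezo2, the touch channel, had 245, 198 and 211 CPM in IP, against 276, 213 and 226 CPM in input and overlapped. The 2 cold-sensing genes tested, Cdh8 and Kcnk2, were under 15 CPM in every library and did not pass.

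Ion channel genes gave no call: 0 of 9 sodium, 0 of 15 potassium and 0 of 12 calcium channel genes passed. At an unadjusted p under 0.05 there were 2, 0 and 3, a count given without the share of all genes and so not read as an excess. DESeq2 called 0, 0 and 1, beside 406 higher and 860 lower of all 11354 genes. Their medians were 0.18, 0.09 and 0.35 (-0.15, -0.23 and 0.04 with pan-neuronal scaling, so the first 2 change sign). Scn4b, a sodium channel beta subunit, had 0.18. Kcna2, a potassium channel of axons, had 184, 292 and 202 CPM in IP, against 304, 328 and 257 CPM in input (-0.39 ± 0.19, adjusted p = 0.247), and Kcnip4, a potassium channel partner, had 0.17. Cacnb4, an auxiliary calcium channel subunit, had the lowest adjusted p of these 36, with 323, 497 and 412 CPM in IP naive libraries 1 to 3, against 257, 304 and 200.1 CPM in input naive libraries 1 to 3 (0.69 ± 0.21, adjusted p = 0.0517). Its groups did not overlap. Cacna2d1, the subunit that binds gabapentin, and Cacna1b, the pore of N-type channels, overlapped at 0.36 and 0.16.

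The 12 largest rises belonged to no single list. After Rab11fip3 came Hdac9, a histone deacetylase, with 96.00, 71.3 and 107 CPM in IP naive libraries 1 to 3, against 24.8, 55.1 and 19.7 CPM in input naive libraries 1 to 3 (1.46 ± 0.30, adjusted p = 0.00381). Rab27b, a GTPase of vesicle exocytosis, had 139, 135 and 126 CPM in IP, against 68.4, 66.1 and 29.6 CPM in input (1.29 ± 0.27). Pigs, part of the enzyme that attaches GPI anchors, had 106, 92.6 and 79.6 CPM in IP, against 28.6, 52.7 and 41.7 CPM in input (1.17 ± 0.25). These 3, Rab11fip3 and Syt9 passed in all 6 fits that left out 1 library. The other 7 did not. A3galt2, a glycosyltransferase (1.25), held in 4 of 6 fits that left out 1 library (adjusted p up to 0.0626, without input naive 2), and Magi3, a scaffold protein (1.18), in 4 of 6 fits that left out 1 library (adjusted p up to 0.0768, without IP naive 1). Hmgxb3 (1.26) held in 4 of 6 fits that left out 1 library (adjusted p up to 0.0956, without IP naive 1). Bloc1s5, a subunit of a complex for lysosome-related organelles (1.24), held in 3 of 6 fits that left out 1 library (adjusted p up to 0.0764, without IP naive 3). Ddx42, an RNA helicase (1.13), held in 2 of 6 fits that left out 1 library (adjusted p up to 0.0969, without input naive 3), and Rab9b, a GTPase of endosomes (1.18), in 1 of 6 fits that left out 1 library (adjusted p up to 0.180, without IP naive 1). Zfp330 (1.26), a zinc finger protein with an adjusted p of 0.0377, lost its call in all 6 of these fits (up to 0.109, without input naive 1).

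Ribosomal protein mRNAs were in part lower on neuronal ribosomes than in the whole ganglion. Of 70 genes of the cytosolic ribosome tested, 27 fell, none rose and 43 did not pass, a share of 38.6% lower beside 4.99% of all genes. In 40 of 70 the 3 IP libraries lay below the 3 input libraries (13.9% of all genes did), and 66 of 70 log2 fold changes were below 0. The median was -0.40, or -0.72 with pan-neuronal scaling, on which 51 fell, beside 1080 of all 11354 genes. Of 81 genes listed, 70 had a site that could be used. The count of 27 was between 16 and 25 with 1 library left out (16 without IP naive 3). Rps29, of the small subunit, had 973, 1126 and 1133 CPM in IP naive libraries 1 to 3, against 1875, 2204 and 2495 CPM in input naive libraries 1 to 3 (-1.02 ± 0.12, adjusted p = 2.25e-05). The 2 groups did not overlap. Rps27 had 142, 256 and 195 CPM in IP, against 364, 488 and 547 CPM in input (-1.24 ± 0.19), Rps16 375, 447 and 384 CPM in IP, against 658, 662 and 857 CPM in input (-0.85 ± 0.13) and Rplp1, of the stalk of the large subunit, 1138, 1242 and 1262 CPM in IP, against 1782, 1968 and 2445 CPM in input (-0.77 ± 0.13). Each of these 4 passed in all 6 fits that left out a library. At the other end Rpl31 (0.40 ± 0.25) and Rpl7 (0.41 ± 0.48) overlapped between the groups. Many ribosomal protein genes have processed pseudogenes of near-identical sequence, and how reads with several alignments were counted is not given in the sources used here, so single members are uncertain. The lists of untagged cells fell in the same libraries (summed level 4123 to 5816 CPM in IP, 17146 to 19838 CPM in input). The part of RNA from those cells in the ribosomal protein result was not tested.

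**Figure D3:**
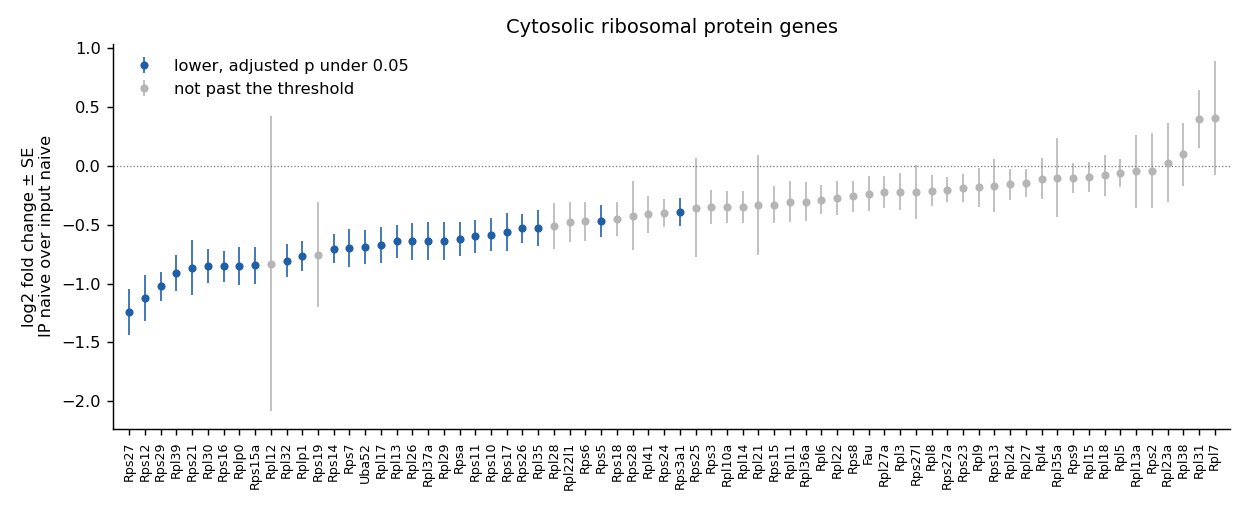
Log2 fold changes (IP naive over input naive, y axis) with standard errors of the 70 ribosomal protein genes tested, ordered from the lowest to the highest. The 27 blue genes passed the threshold and lie between -1.24 and -0.39, and 4 genes lie above 0.

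Ribosomal protein mRNAs are known for a 5′ terminal oligopyrimidine tract, an initial C followed by further C or T bases in the DNA, through which their translation is regulated. RefSeq starts (GRCm38.p6, 1 strand, the gene's own) were read for 52 of the 70 genes, and 13 (25%) opened with a C followed by at least 4 bases each C or T. This compares with 266 of 9296 other genes tested (2.86%) and with 3.01% of all 27025 genes of the start table. Of the ribosomal protein genes that fell, 5 of 16 with a start in the table held the tract (31.3%), and 8 of 36 (22.2%) of those that did not pass. Members with the tract had a median of -0.47 and those without of -0.35. The annotated start is not the measured one, and a missing tract says only that these letters are not at that base. The 5 genes are shown to let the tract be read, from 8 bases before the annotated start to 22 from it, with the tract in capitals.
Rps27: ctttcgctCCTTTCCggcggtgacgacctc
Rps21: gacccgccCTCCTgcccaatagtgctgcgg
Rps15a: tctgccatCTTCCCTCgccggtgagtgagt
Rps10: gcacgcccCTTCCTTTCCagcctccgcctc
Rpl35: gccctttcCTCTTTCTCTCgaaccaggctg
Rps27 lies at chr3:90213627-90213656 on the minus strand and fell by 1.24 ± 0.19 on the log2 scale. Rps21 lies at chr2:180257371-180257400 on the plus strand, with -0.86, and Rps15a at chr7:118116126-118116155 on the minus strand, with -0.84. Rps10 lies at chr17:27635223-27635252 and Rpl35 at chr2:39005110-39005139, both on the minus strand, with -0.59 and -0.53. The tract runs from 5 bases in Rps21 to 11 in Rpl35. These 5 were chosen after their values were seen.

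Translation factors moved less. Of 24 tested, 3 fell (12.5%, beside 4.99% of all genes) and none rose, and the median was -0.14 (-0.46 with pan-neuronal scaling). The 3 were Tpt1, which encodes a growth-related calcium-binding protein, Pabpc1, the poly(A)-binding protein, and Eef1a1, the elongation factor that brings transfer RNA. Tpt1 had 1573, 1534 and 1584 CPM in IP naive libraries 1 to 3, against 2159, 2142 and 2379 CPM in input naive libraries 1 to 3 (-0.51 ± 0.10, adjusted p = 0.00231). Pabpc1 had 125, 158 and 96.1 CPM in IP, against 282, 311 and 172 CPM in input (-1.01 ± 0.22). Eef1a1 had 1303, 1599 and 1402 CPM in IP, against 1884, 2081 and 1926 CPM in input (-0.45 ± 0.11) and held in 3 of 6 fits that left out 1 library (adjusted p up to 0.0966, without IP naive 1). All 3 are known in mammals as mRNAs with a terminal oligopyrimidine tract. The tract was not counted in this list, where 21 genes did not pass and 9 had log2 fold changes above 0. Whether the 3 differ in it from the other 21 was not tested. Nuclear genes of the respiratory chain, the other large housekeeping list, gave few calls. Of 54 tested, 2 rose (3.70%, beside 1.95% of all genes) and none fell. The median was 0.02 (-0.30 with pan-neuronal scaling, on which 9 fell, beside 1080 of all 11354 genes). The number that rose was between 0 and 2 with 1 library left out (1 without IP naive 1, 0 without IP naive 3, 1 without input naive 1, 0 without input naive 2, 1 without input naive 3). Atp5g3, an ATP synthase subunit, had 6366, 5876 and 6547 CPM in IP, against 4709, 4353 and 5189 CPM in input (0.40 ± 0.10) and held in 2 of 6 fits that left out 1 library (adjusted p up to 0.0958, without input naive 2). Ndufb3, of complex I, rose by 0.39 ± 0.11 and held in 2 of 6 fits that left out 1 library (adjusted p up to 0.182, without IP naive 3). Cox7c and Uqcrh of the chain did not pass (-0.26 and -0.00).

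Some RNAs that do not encode protein were lower. Of 15 named noncoding RNAs tested, 4 fell (26.7%, beside 4.99% of all genes) and none rose, with a median of -0.71. This count of 4 was between 1 and 4 with 1 library left out (1 without IP naive 1, 2 without IP naive 3, 2 without input naive 1, 2 without input naive 2). Meg3, an imprinted noncoding RNA of neuronal nuclei, had 33.2, 24.1 and 10.5 CPM in IP naive libraries 1 to 3, against 69.4, 88.9 and 75.6 CPM in input naive libraries 1 to 3 (-1.79 ± 0.31, adjusted p = 0.00109). Its groups were well apart. Malat1, an abundant nuclear RNA, had 412, 614 and 331 CPM in IP, against 1859, 1362 and 459.5 CPM in input (-1.44 ± 0.41, adjusted p = 0.0379). Its groups overlapped, since input naive 3 lay below IP naive 2, and the call held in 2 of 6 fits that left out 1 library (adjusted p up to 0.186, without input naive 1). Miat, a further nuclear RNA (-1.35), held in 1 of 6 fits that left out 1 library (adjusted p up to 0.152, without input naive 2), and Snhg18, a host of small nucleolar RNAs (-1.87), in 5 of 6 fits that left out 1 library (adjusted p up to 0.0594, without IP naive 1). Over all 300 long noncoding RNA genes tested, 1 rose and 16 fell (5.33%, beside 4.99% of all genes), with a median of -0.21.

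Immediate early genes are those that cells switch on within minutes of a stimulus. Of 18 tested, 3 were lower (16.7%, beside 4.99% of all genes) and none higher, with a median of -0.73. The median was -0.30 without IP naive 3 and -0.43 without input naive 3, and 1 gene was called higher without IP naive 2 and without IP naive 3. From annotated 3′ ends only, 0 of 16 passed. Klf2, a transcription factor prominent in endothelium, had 5.35, 4.56 and 10.4 CPM in IP, against 51.7, 28.8 and 41.3 CPM in input (-2.58 ± 0.49, adjusted p = 0.00201), and its relative Klf4 1.71, 2.90 and 5.15 CPM in IP, against 19.4, 17.2 and 25.02 CPM in input (-2.65 ± 0.58). Egr1, a zinc finger factor, had 14.1, 3.21 and 18.99 CPM in IP, against 51.97, 35.9 and 41.7 CPM in input (-1.83 ± 0.47) and held in 4 of 6 fits that left out 1 library (adjusted p up to 0.0796, without input naive 1). Jun, the AP-1 factor with the highest level of the list, overlapped between groups at 179, 210.2 and 158 CPM in IP, against 181, 188 and 176 CPM in input. Summed endothelial markers, 66.1 to 111.9 CPM in IP and 306.5 to 324.2 CPM in input, moved with Klf2 and Klf4. Their part in the result was not tested. Of 7 histone genes 2 fell (28.6%, beside 4.99% of all genes), H3f3a and H3f3b, which encode the replacement histone H3.3. The count was 1 without each single library except input naive 3. H3f3a had 147, 233 and 187 CPM in IP, against 403, 353 and 491 CPM in input (-1.14 ± 0.16, adjusted p = 1.64e-04). H3f3b fell by 0.46 ± 0.13 and held in 1 of 6 fits that left out 1 library (adjusted p up to 0.117, without input naive 1).

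Among 25 endoplasmic reticulum genes 2 fell (8%, beside 4.99% of all genes), Kdelr1, a receptor that returns resident proteins to the reticulum, and Pdia6, a disulfide isomerase. This number was between 1 and 3 with 1 library left out (1 without IP naive 1, 1 without IP naive 3, 1 without input naive 1, 1 without input naive 2, 1 without input naive 3). Kdelr1 had 115, 148 and 101 CPM in IP, against 262, 209 and 302 CPM in input (-1.08 ± 0.21, adjusted p = 0.00219). Pdia6 fell by 0.52 ± 0.15 and held in 1 of 6 fits that left out 1 library (adjusted p up to 0.212, without IP naive 1). Hspa5, the chaperone BiP, Canx, calnexin, and Spcs1, of the signal peptidase, overlapped (0.14, -0.06 and -0.15). Of 17 genes of cholesterol and fatty acid synthesis 3 fell (17.6%, beside 4.99% of all genes), and the median was -0.12 (-0.43 with pan-neuronal scaling). In 7 of the 17 the log2 fold change was above 0. The number that fell was between 0 and 2 with 1 library left out (1 without IP naive 1, 1 without IP naive 2, 0 without IP naive 3, 0 without input naive 1, 1 without input naive 3). Scd2, a fatty acid desaturase, had 1054, 1448 and 1178 CPM in IP, against 2011, 1636 and 1579 CPM in input (-0.51 ± 0.13) and held in 3 of 6 fits that left out 1 library (adjusted p up to 0.135, without IP naive 1). Srebf1, the transcription factor of lipid synthesis (-1.25), held in 2 of 6 fits that left out 1 library (adjusted p up to 0.257, without input naive 3), with overlapping groups. Fasn, fatty acid synthase (-0.76), lost its call in each of the 6 fits (adjusted p from 0.0526 without IP naive 3 to 0.226 without IP naive 1). Of 12 trophic factor receptor genes only Ret passed (8.33% higher, beside 1.95% of all genes). Ntrk2 and Bmpr2, a receptor for bone morphogenetic proteins, did not (-0.08 and 0.23).

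A gene can keep its total and still differ in which of its ends is on ribosomes. The share of each site in the counts of its gene was tested in 5268 genes with more than 1 site (diffSpliceDGE of edgeR), and 13 passed (0.247%). The clearest was Ntrk2 (adjusted p = 1.73e-06, at most 0.00114 with any 1 library left out). Ntrk2 encodes TrkB, the receptor of the neurotrophin BDNF. The gene is known for a long transcript that encodes the receptor with its kinase and shorter ones that end at internal exons and encode a truncated receptor without it, the form of glia.

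Ntrk2 lies on the plus strand of chromosome 13. It had 8 sites in 2 groups of 4: one from 59 to 5186 bp before its annotated 3′ end (the last at chr13:59133892-59133931), the other from 196972 to 201651 bp before it (such as chr13:58936986-58937011 and chr13:58932411-58932436). Positions are GRCm38 as deposited, and whether they were counted from 0 or 1 is not stated. The 4 sites near the end summed to 192.9, 202.5 and 204.9 CPM in IP, against 133.6, 120.7 and 170.2 CPM in input, 1.41-fold. The 4 far upstream summed to 16.4, 30.6 and 21.4 CPM in IP, against 115.1, 68.6 and 98.2 CPM in input, 4.12-fold lower in IP. The far sites took 10.1% ± 2.72 of the counts of the gene in IP and 39.7% ± 5.70 in input (SD, n = 3 each). The groups did not overlap, and the two-sided exact permutation p was 0.1, the smallest that 3 against 3 libraries allow. The total of the gene had 209, 233 and 226 CPM in IP, against 249, 189 and 268 CPM in input (-0.08 ± 0.16). In injured ganglia the far sites took 13.7% ± 3.24 in IP and 51.2% ± 1.96 in input. Which exon the far sites lie in was not tested, since no exon annotation was used here. The satellite glia sum moved with the far sites (1987 to 2417 CPM in IP, 4485 to 4643 CPM in input), and the part of glial RNA was not tested.

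**Figure D4:**
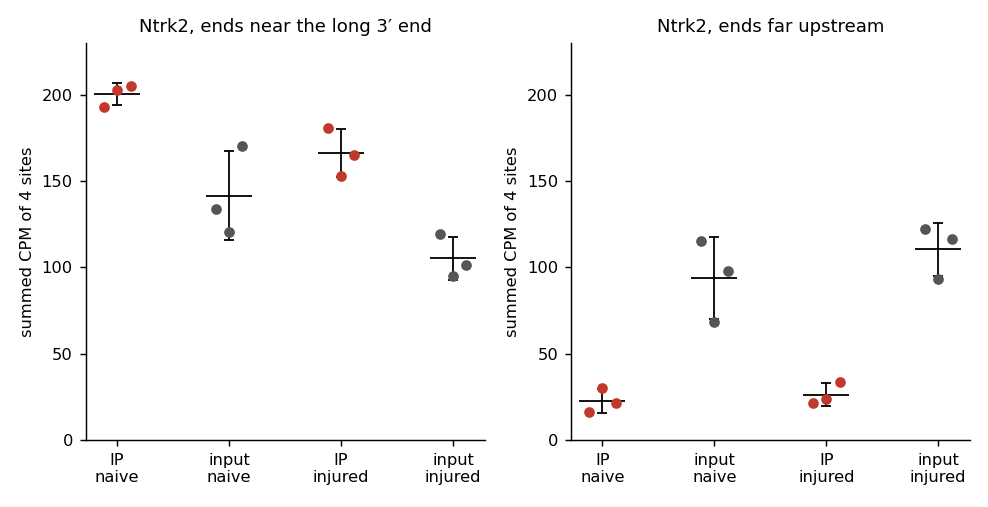
Summed CPM of the 4 Ntrk2 sites near the annotated 3′ end (left) and of the 4 sites about 200 kb before it (right), by library, with group means and SD (n = 3). Near the end both IP groups lie above their inputs, and far upstream every IP library is under 34 CPM while every input library is over 68 CPM.

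Mbp was the other gene that passed in all 6 fits that left out 1 library (adjusted p = 0.00208). Its site 26980 bp before the end took 21.7%, 10.2% and 11.7% of its counts in IP, against 1.80%, 2.27% and 1.33% in input. The raw counts at that site, not scaled for depth, were 502, 332 and 361 in IP, against 254, 346 and 207 in input. Raw counts at the end were 1805, 2913 and 2668 in IP, against 13862, 14868 and 15376 in input. The raw counts at the upstream site overlapped between the groups, and those at the end did not. Calm3, a calmodulin gene, used a site 1451 bp before its end less in IP, 1.43%, 1.89% and 1.14% against 4.51%, 7.49% and 7.09% in input (adjusted p = 0.00472, passed in 5 of 6 such fits, up to 0.116). Sptbn1, a spectrin, used a site 7480 bp before its end less, 4.24%, 5.47% and 2.76% in IP against 12.02%, 13.3% and 16.9% in input (adjusted p = 0.00482, 4 of 6, up to 0.257). Ankfy1, an endosomal protein, had a larger share at a site 945 bp before its end, 61.8%, 63.5% and 61.2% in IP, against 30.1%, 8.08% and 24.4% in input (adjusted p = 0.00757, 3 of 6, up to 0.206). The share was lost mainly at a site 84 bp before the end, labelled in part as a B2 repeat. Raw counts there were 389, 427 and 441 in IP, against 1078, 2113 and 1458 in input. At the site 945 bp before the end they were 722, 766 and 762 in IP, against 530, 210 and 502 in input. The part of the B2 repeat in this result was not tested. Alox5ap, a leukotriene synthesis protein of immune cells, had few counts, with 1, 0 and 1 in IP and 116, 72 and 104 in input at the site 39 bp before its end, and 68, 16 and 38 in IP and 11, 66 and 91 in input at the site 137 bp before it (adjusted p = 0.00456, 4 of 6, up to 0.0547). Zmiz1, Herc3, Zdhhc18 and H3f3b completed the 10 of lowest p. They passed in 3, 1, 1 and 1 of these fits.

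The place of the reads also differed. Sites in B2 elements, short interspersed repeats of the mouse, took 2.40%, 4.26% and 2.22% of the counts in IP naive libraries, against 8.23%, 11.5% and 10.6% in input naive libraries. All IP libraries lay below all input libraries, with a ratio of 0.292 between the means. Sites outside genes took 3.65% ± 0.49 in IP and 7.12% ± 0.83 in input, and sites in genes on the opposite or an unresolved strand 3.45% ± 0.48 in IP and 5.84% ± 0.54 in input (SD, n = 3 each). Kinds of repeat and kinds of position overlap, since a B2 site can also lie outside genes or on the opposite strand. All are shares of the same total, where a fall in any kind raises the rest, so they are not separate results. Alu elements, called B1 in mouse, took 1.38% ± 0.07 in IP and 1.83% ± 0.12 in input. L1 elements, long interspersed repeats, did not share the fall, with 1.29% ± 0.07 in IP and 1.21% ± 0.02 in input, and ERVK retroviruses overlapped (0.611% ± 0.05 in IP, 0.585% ± 0.03 in input, exact permutation p = 0.5). Annotated 3′ ends of genes took more, 51.7% ± 0.78 in IP and 47.9% ± 0.98 in input. Each of these differences, ERVK apart, had the smallest two-sided exact permutation p the design allows, 0.1. With ribosomal RNA left out of the total, L1 overlapped between the groups (exact permutation p = 0.2). Ribosomal RNA took 12.5% ± 2.48 in IP and 11.5% ± 1.24 in input and overlapped (exact permutation p = 0.7).

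**Figure D5:**
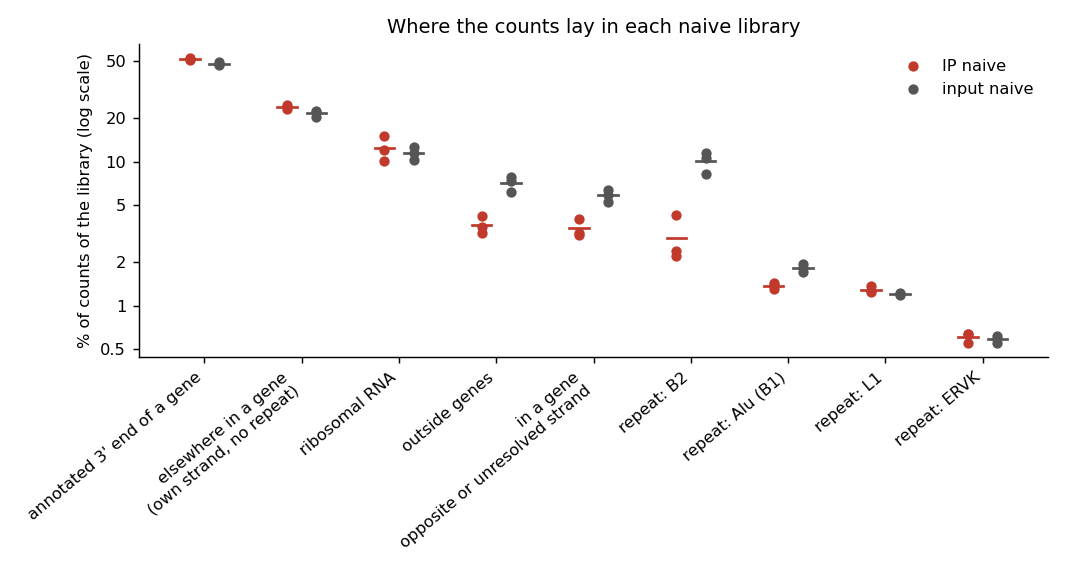
Percent of the counts of each library (log scale) by kind of site, for the 3 IP naive (red) and 3 input naive libraries (grey), with group means as bars. A site can count in both a kind of repeat and a kind of position. Shares overlap for ribosomal RNA and ERVK, and B2 elements show the widest gap, with at most 4.26% in IP and at least 8.23% in input.

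Injured ganglia gave a second set of libraries from the other side of the same design. There 218 genes rose in IP injured against input injured (1.92%) and 457 fell (4.03%), together 675 (5.95%). Syt1 had 0.90 in naive ganglia and 0.78 in injured ganglia (adjusted p = 0.00747), and Mbp had -2.80 in naive and -3.03 in injured ganglia (adjusted p = 4.26e-07). A test of the difference between the naive and the injured comparison passed in no gene (0.0%). At an unadjusted p under 0.05 there were 384 of 11354 genes, a share below 0.05 itself, and DESeq2 called 14. No gene is therefore called particular to naive ganglia by edgeR here. Ribosomal protein genes had a median of -0.40 in naive and of -0.40 in injured ganglia, where 21 of the 70 fell.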

How the data were processed

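Per the labels, QuantSeq REV libraries were made from RNA bound to HA-tagged ribosomes and from RNA before precipitation. The authors deposited raw counts per genomic site, with no normalization, and per the submitters' processing notes bcl2fastq 2.17, STAR, HTSeq and the builds GRCm38 and mm10 were used. The calling of sites and the handling of multiply aligned reads are not given in the sources used here. Of 178451 lines, 20 were damaged and left out, and 17 columns without a name were not used.

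Sites were placed on genes of a RefSeq table (GRCm38.p6) by position and strand, up to 200 bp past the annotated 3′ end. The strand of a site came from the 2 position-sorted blocks of the table, minus and then plus. The strand of a gene came from the RefSeq start table (27025 genes) or, for 2113 genes, from the end that held the counts, a rule that gave the RefSeq strand in 99.8% of 8153 genes. An earlier account of the series also used the strand with 90% of the counts over a gene. That rule gave the RefSeq strand in 53.8% of 3611 genes and was not used. Sites outside repeats or within 100 bp of the annotated end were summed, 29123 sites in 13205 genes with 72.6% of the counts.

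edgeR 4.0.16 in R 4.3.3 fitted all 12 libraries, 1 mean per group of 3, with filterByExpr, and 11354 genes were tested. On counts simulated for 11012 genes the test recovered 29.6% of 2-fold and 62.9% of 4-fold changes, with 4 false calls. Recovery in the test of 3′ end use was 2% and 16%. The genes and the 31 lists were chosen with earlier results of these data known. Named genes are, of those past the threshold with at least 20 CPM in the higher group and no overlap, the 12 largest rises and 12 largest falls. For each list they are the 4 called genes of lowest p and the gene of highest level, plus the 3 of highest level where under 3 were called. Avil, Rpl22, Rbfox3, Isl1, Malat1 and Meg3 and the 10 genes of lowest p for end use were always named. Some genes that this rule selects are not reported here. Other genes named were chosen after their values were seen. No 2 libraries of the same group were alike within sampling noise.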

Additional observations from a re-analysis of the deposited data

How the results depend on the processing

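The medians of the 8 lists of untagged cells stayed below 0 under every setting run for the genes. None of the 92 named genes that passed changed direction in them. Of these 92, 70 passed with pan-neuronal scaling, 89 with DESeq2, 63 from annotated 3′ ends only (20 more were tested there and did not pass), and between 68 and 81 with 1 library left out. The sign turned in at least 1 setting in 25 named genes that had not passed (values on the log2 scale). With pan-neuronal scaling they were Hmgcs1 -0.098, Cd34 -0.31, Calca -0.26, Nmb -0.17, Tac1 -0.16, Scn10a -0.18, Scn11a -0.19, Kcna1 -0.23, Etv1 -0.041, Scn4b -0.15, Kcnip4 -0.15, Cacna1b -0.18, Pcsk1n -0.12, Bmpr2 -0.099, Jun -0.31, Hspa5 -0.18 and Isl1 -0.12. From annotated 3′ ends only they were Kcna2 0.14, Ntrk2 0.58, Canx 0.026 and Rpl22 0.28, and with all tied sites Cd44 0.029, Uqcrh 0.074 and Canx 0.019. Scaling by library size only gave Cd34 -0.054, Calca -0.011 and Jun -0.058, and a filter of 10 CPM Cd34 -0.016 and Jun -0.018. The 6 naive libraries alone gave Jun -0.0018, and strand from the counts alone Uqcrh 0.00042. With 1 library left out, those that turned ran over L1cam -0.27 to 0.18, Cd44 -0.24 to 0.11, Cd34 -0.14 to 0.12, Calca -0.058 to 0.16, Cdh8 -0.57 to 0.30, Kcnip4 -0.034 to 0.43, Ntrk2 -0.21 to 0.023, Uqcrh -0.062 to 0.098, Jun -0.079 to 0.11 and Hspa5 -0.0074 to 0.23. Left without Hmgcs1 and Pmp22, chosen after seeing the data, the summed ratio of untagged cells was 0.186 in place of 0.270. With 221 genes higher and 566 lower in the main setting, scaling by library size only gave 122 higher, pan-neuronal scaling 18 higher and 1080 lower, and DESeq2 1266 in all (406 higher, 860 lower). The 6 naive libraries alone gave 134 higher. All tied sites, repeats included, gave 1240 in all and 401 higher, and annotated ends only 499 in all, 126 higher and 373 lower. Strand taken from the counts alone, chosen after seeing the data, gave 215 higher and 541 lower. With 1 library left out there were 495 to 855 in all, 73 to 276 higher and 405 to 579 lower. The 495 is without IP naive 1, and 505 was the count without IP naive 3. The cause of these shifts was not tested.

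IP and input share replicate numbers, and the labels do not say whether a number marks the same pool. Deviations of same-numbered naive libraries correlated by 0.008 to 0.015, and those of differently numbered ones by -0.014 to 0.004. In injured libraries the values were 0.009 to 0.032 for the same number and -0.035 to 0.005 for different numbers. Each IP library, naive or injured, had its highest value with the input of its own number. All these values are very small, so they do not settle whether a number marks the same pool. A replicate block gave 382 higher (1038 in all) with 12 libraries, and 141 higher with the 6 naive libraries. With the block Cd34 was -0.044 with 12 libraries, and Cd34 -0.0057 and Jun -0.0098 with 6. The median of the immediate early genes was -0.37 with the block and 12 libraries. The block called 0 genes for the difference between injured and naive ganglia.

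Injured ganglia gave 1040 genes with DESeq2 and 340 to 545 with 1 library left out (340 without IP injury 1 and 399 without IP injury 3). The difference between injured and naive passed in 14 genes with DESeq2 and in 0 to 2 with 1 library left out (2 without IP naive 2). For 3′ end use, 13 genes in the main setting, all tied sites gave 216, the 6 naive libraries 5, the replicate block 7, the Simes test 6, and leaving out 1 library 2 to 16. Without IP naive 1 there were 7, without IP naive 3 there were 2, and without input naive 2 and 3 there were 6 and 8. The difference in ribosomal RNA share, 1.00 percentage points, turned to -0.321 without IP naive 3 and was 2.14 without IP naive 2. The pan-neuronal ratio was 1.35 on whole-library CPM. At this depth genes of a few CPM were open to counting error, and the simulated recovery of 2-fold changes was low.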

Other observations

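Genes outside the lists, chosen after their values were seen, held some of the lowest p-values. Rgs4, a regulator of G protein signalling, had 2411, 2449 and 2416 CPM in IP, against 1405, 1478 and 1330.0 CPM in input (0.79 ± 0.11, adjusted p = 8.19e-05). App, the amyloid precursor protein, rose by 0.64 ± 0.10, and Ddx3x, an RNA helicase of translation, by 0.98 ± 0.18. Isl2, a transcription factor of the same family as Isl1, rose by 0.81 ± 0.17. Hs6st2, a heparan sulfate sulfotransferase, rose by 1.12 ± 0.22.

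Falls outside the lists, chosen in the same way, were deeper. Cryab, a small heat shock protein, had 47.1, 63.3 and 58.9 CPM in IP, against 365, 302 and 374 CPM in input (-2.62 ± 0.18, adjusted p = 1.27e-07). Fth1, the ferritin heavy chain, had 418, 951 and 467 CPM in IP, against 2287, 2651 and 2987 CPM in input (-2.11 ± 0.23), and IP naive 2 was the highest IP library in it. The metallothioneins Mt1 (-2.56 ± 0.27) and Mt2 (-2.34 ± 0.23) fell, as did Dbi, a carrier of acyl-CoA (-1.67 ± 0.14), and Vim, the filament vimentin (-2.84 ± 0.31). All 11 of these genes passed in each of the 6 fits that left out 1 library.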
